A study of Mus musculus with 8 samples.

Results

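The genes described here encode nuclear subunits of the mitochondrial respiratory chain, 47 of the 56465 features in the table. They are listed by gene symbol as subunits of the chain, with no threshold on measured values, although the list was drawn up with earlier results of these data known. They hold 27 subunits of complex I, 4 of complex II, 7 of complex III and 9 of complex IV. RNA was sequenced from detached mouse retinas of 2 groups, each with 4 libraries. The TG group came from mice that express human transferrin, an iron-carrying protein of plasma, and the WT group from wild-type mice. In both groups the strain label was C57Bl/6J and the detachment was made by injecting 10 µL of sodium hyaluronate under the retina, with the tissue taken 4 days later. The TG group held 2 males and 2 females, with 2 left and 2 right eyes, and the WT group held 3 males and 1 female, with 1 left and 3 right eyes. The sources used here do not give the age of the mice, the promoter that drives the transgene or the breeding history, no undetached retina was analysed here, and the human transcript was not analysed here. Whether any 2 retinas shared a mouse is not stated in the labels, and p-values therefore reflect only how much these 8 samples varied.

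The respiratory chain passes electrons from NADH and succinate to oxygen and pumps protons across the inner mitochondrial membrane, and ATP synthase uses that gradient to make ATP. Complex I oxidises NADH, complex II oxidises succinate, complex III hands electrons from ubiquinol to cytochrome c, and complex IV reduces oxygen. Apart from complex II, each complex joins subunits made in the cytosol from nuclear genes to a few made inside the mitochondrion. Photoreceptors pack mitochondria densely into their inner segments and consume much oxygen, and several subunits hold iron-sulfur clusters or haem, for which the cell needs iron.

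Promoters of many of these genes are known targets of NRF1 and of ETS-family factors such as GABP. Letters for both were searched on both strands in the window from 250 bases before to 50 bases after the transcription start, taken from RefSeq on GRCm38.p6. The searched letters were GCGCANGCG for NRF1 and CCGGAAGT for ETS factors, and these do not overlap each other as written. A window was found for 37 of the 47 genes. The NRF1 letters occurred in 9 of the 37, or 24.3%, against 6.25% of all 32851 windows. The ETS letters occurred in 2 of the 37, or 5.41%, against 3.89% of all windows. At least 1 of the 2 motifs occurred in 11 of the 37, or 29.7%, against 9.57% of all windows. A match is a string of letters and no proof of binding. One gene per complex is shown with the 170 bases just before its start, 5′ to 3′ on the minus strand that carries each of them, with the matches in capitals. These 4 were picked to show the motifs in each of the complexes.
Ndufa8, complex I, chr2:36049339-36049508: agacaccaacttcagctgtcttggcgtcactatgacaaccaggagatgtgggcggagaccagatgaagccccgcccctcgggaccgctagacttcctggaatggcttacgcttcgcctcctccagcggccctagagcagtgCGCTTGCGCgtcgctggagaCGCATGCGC
Sdha, complex II, chr13:74350241-74350410: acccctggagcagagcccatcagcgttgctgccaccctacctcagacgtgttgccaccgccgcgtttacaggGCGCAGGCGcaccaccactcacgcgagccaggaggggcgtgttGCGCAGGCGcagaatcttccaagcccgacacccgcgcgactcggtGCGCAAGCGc
Uqcrh, complex III, chr4:116075071-116075240: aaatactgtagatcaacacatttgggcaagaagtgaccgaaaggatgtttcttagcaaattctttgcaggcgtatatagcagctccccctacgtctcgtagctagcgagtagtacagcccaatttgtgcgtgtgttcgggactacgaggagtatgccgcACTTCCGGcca
Cox6a1, complex IV, chr5:115348959-115349128: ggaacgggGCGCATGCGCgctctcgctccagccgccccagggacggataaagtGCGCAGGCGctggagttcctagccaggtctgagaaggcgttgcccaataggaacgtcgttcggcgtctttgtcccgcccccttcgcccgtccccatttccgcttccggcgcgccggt
In the Ndufa8, Sdha and Cox6a1 stretches the capitals are NRF1 letters, and in the Uqcrh stretch they are the ETS letters read on the other strand.

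The libraries held 61535690 to 70540242 recovered reads in TG and 68433927 to 75866423 in WT. Values below are normalized reads, the counts divided by the authors' size factor of each library. Some libraries stood apart in markers of other tissues. The 12 pigment epithelium markers, all measured and none at 0 throughout, summed to 7428 to 44993 normalized reads in TG (highest in TG 2) and 4821 to 102477 in WT (highest in WT 3). The 15 lens markers, of which 14 passed a mean of 10, summed to 22644 in TG 6 and 254 to 6577 in the other TG libraries, against 29036 in WT 3 and 155 to 1050 in the other WT libraries. The 6 oligodendrocyte markers, of which 5 passed a mean of 10, summed to 709 to 979 in TG and 545 to 11126 in WT, where WT 3 was the highest. The 14 rod markers, the defining genes of the main retinal cell type, were all measured, none at 0 throughout, and summed to 4.13e+06 to 6.40e+06 in TG and 4.63e+06 to 5.27e+06 in WT. Of their log2 fold changes 10 were negative and 4 positive, with a median of -0.12 and 0 called. The 8 cone markers summed to 94368 to 147448 in TG and 105930 to 144385 in WT, with 5 negative and 3 positive, a median of -0.23 and 0 called. The 5 red blood cell markers, all measured, summed to 14470 to 27131 in TG, against 2635 in WT 4 and 37301 to 39044 in the other WT libraries. The 13 microglia and macrophage markers, all measured, summed to 18831 to 48817 in TG and 19856 to 28761 in WT, with 12 of 13 log2 fold changes positive, a median of 0.39 and 0 called. The 9 bipolar cell markers summed to 52519 to 73341 in TG and 50527 to 52492 in WT, with 7 positive and 2 negative, a median of 0.21 and 0 called. For the 9 Mueller glia markers the sums were 198419 to 275236 in TG and 155254 to 225922 in WT, with 6 positive and 3 negative, a median of 0.34 and 0 called. The part of these markers in the results below was not tested. In bulk tissue, fewer cells of a type and less RNA per cell cannot be told apart.

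All 47 genes were measured well above the minimum mean of 10, with means from 1261 normalized reads for Cox7c to 49459 for Ndufb8. None of them passed the test between TG and WT. With limma and Benjamini-Hochberg adjustment over the 19798 features tested, 0 of 47 had an adjusted p under 0.05, against 2, or 0.0101%, of these features. The smallest adjusted p among the 47 was 0.918. At an unadjusted p under 0.05 the count was also 0 of 47, against 4.64% of all features. With edgeR on the recovered reads 0 of 47 passed, against 0.0101% of all features, and with DESeq2 0 of 47 passed, against 0.0808%. Neither tool gave any of them an unadjusted p under 0.05. For 0 of 47 genes did the TG and WT libraries fail to overlap, against 2.53% of all features.

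The estimated differences were small, and their direction turned with the libraries included. The log2 fold change of TG over WT was positive for 31 genes and negative for 16, against 47.8% positive among all features. This split was 39 to 8 with upper-quartile scaling and 37 to 10 when scaled to reads outside the mitochondrial genome. It was 40 to 7 without TG 2, 21 to 26 without TG 6 and 24 to 23 without WT 4. Its median was 0.07 over the 47 genes, -0.02 over all features and 0.03 over features of mean 1000 or more. With each library left out in turn, the median over the 47 genes ran from -0.00702 to 0.15. The main value lay within 0.1 of 0 for 23 genes and beyond 0.2 for 6. The standard error had a median of 0.14 over the 47 genes, against 0.16 for features of mean 1000 or more. The 95% interval lay within 1.5-fold in either direction for 45 of the 47 genes, against 73.9% of features of mean 1000 or more. The exceptions were Ndufb8, with an interval from -0.75 to 0.02, and Ndufb2, with one from -0.62 to 0.10. Both intervals reached past 1.5-fold on the side of lower values in TG. Both subunits sit in the membrane arm of complex I, where 10 of the 13 genes had positive and 3 had negative log2 fold changes. For Ndufb2, TG 2 was the lowest of the 8 libraries at 6253 normalized reads and WT 3 the highest at 12675. Its transcript shares a stretch at 100% identity with Gm42420, another annotated gene.

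**Figure D1:**
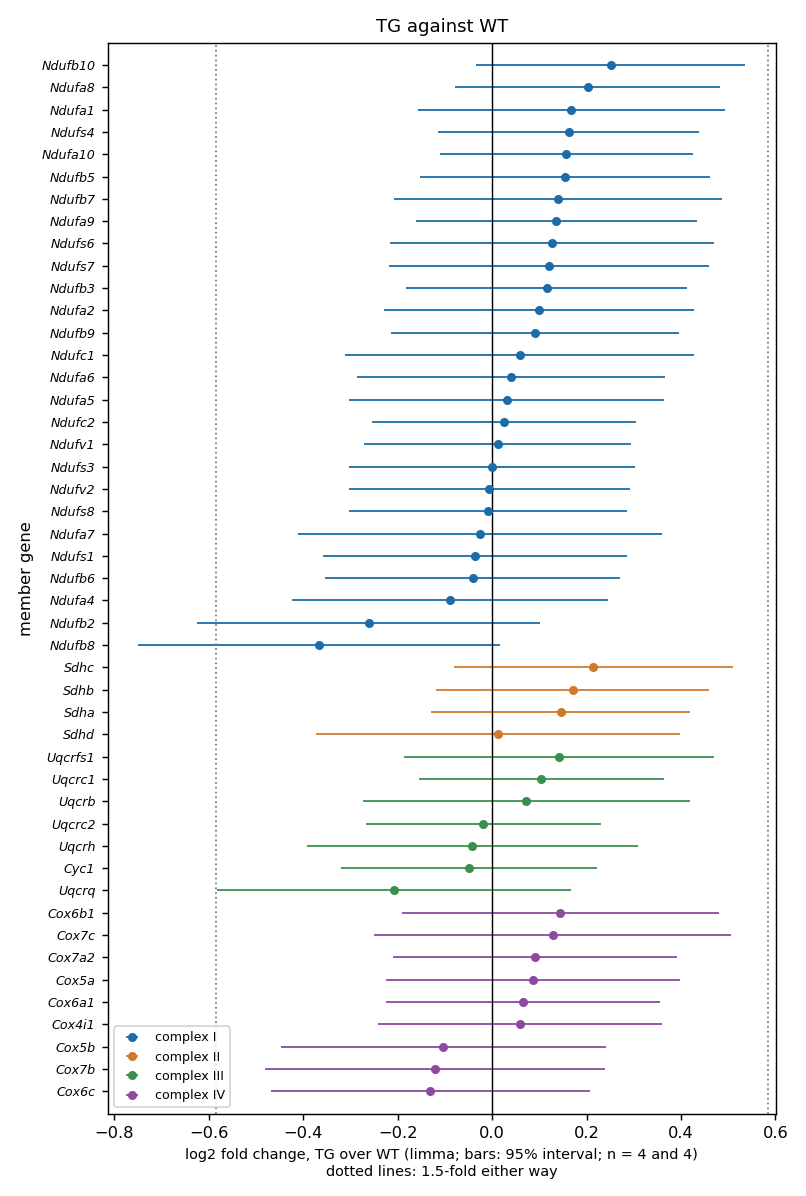
Log2 fold change of TG over WT for each of the 47 genes, grouped by complex, with points at the estimate and bars for the 95% interval from limma (n = 4 libraries per group). The dotted lines mark 1.5-fold in either direction, and the intervals of Ndufb8 and Ndufb2 reach past the lower one.

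Complex I is the entry point for electrons from NADH. Its 27 genes had 18 positive and 9 negative log2 fold changes and a median of 0.06, with 0 of 27 called. That median was -0.01 without TG 6, -0.03 without WT 4 and 0.17 without TG 2. The 13 genes of the matrix arm, which takes the electrons from NADH, had a median of 0.03, and the 13 of the membrane arm, which pumps protons, had a median of 0.12. The remaining gene, Ndufa4, carries a complex I name but is now known to belong to complex IV. Counting it there changed the medians to 0.07 for complex I and 0.06 for complex IV.

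Ndufb8, on chr19:44548572-44555426, encodes an accessory subunit of the membrane arm. Its transcript shares a stretch at 97.9% identity with Gm20538, another annotated gene, so its level is uncertain. It was at 29625, 47535, 50917 and 45934 normalized reads in TG 2, 5, 6 and 8, against 68611, 51290, 52566 and 49194 in WT 3, 4, 5 and 7. TG 2 was far below and WT 3 far above the other 6, whose values ran close together, and the groups overlapped. By limma, TG over WT was -0.37 ± 0.18 on the log2 scale (SE, adjusted p = 0.918). This value was -0.19 without TG 2 and -0.26 without WT 3. TG 2, the lowest library for Ndufb8, and WT 3, the highest, both had higher sums of pigment epithelium markers than the other libraries, at 44993 and 102477. The part of these markers in the result was not tested. With a pigment epithelium score in the fit the log2 fold change was -0.36, which with 8 libraries is no test of that part.

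Ndufb10 on chr17:24722063-24724423 and Ndufa8 on chr2:36036329-36049309 both encode accessory subunits that face the intermembrane space. Ndufb10 was at 14054, 16467, 19725 and 18933 normalized reads in TG 2, 5, 6 and 8, against 14730, 13327, 15540 and 14123 in WT 3, 4, 5 and 7. TG 2 lay inside the WT range and the other TG libraries lay above every WT library. On the log2 scale TG exceeded WT by 0.25 ± 0.13 (SE, limma adjusted p = 0.918). Ndufa8 was at 7992, 9426, 9798 and 9993 in TG 2, 5, 6 and 8, against 8598, 7037, 9101 and 7648 in WT 3, 4, 5 and 7. Again TG 2 alone lay among the WT libraries, and the log2 fold change was 0.20 ± 0.13 (SE, limma adjusted p = 0.918).

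Ndufa9, an accessory subunit near the quinone-binding site, was at 5437, 5538, 6811 and 6074 normalized reads in TG 2, 5, 6 and 8, against 5140, 4924, 6668 and 5063 in WT 3, 4, 5 and 7. WT 5 stood apart from the other WT libraries and reached the TG range, so the groups overlapped. The log2 fold change was 0.14, and 0.24 without WT 5. Ndufs1, the core subunit with the most iron-sulfur clusters, was at 3873, 3155, 3426 and 3465 in TG 2, 5, 6 and 8, against 3198, 3192, 3369 and 4661 in WT 3, 4, 5 and 7. Here TG 2 was the highest TG library and WT 7 the highest of all, and the log2 fold change was -0.04 against 0.09 without WT 7. The 6 core subunits of complex I had a median of -0.0035, and the 21 other subunits one of 0.10.

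Complex II is made of 4 nuclear subunits and no mitochondrial one. All 4 log2 fold changes were positive, with a median of 0.16 and 0 of 4 called. Sdhc, a membrane anchor that holds haem, was at 10760, 12239, 15427 and 13582 normalized reads in TG 2, 5, 6 and 8, against 11449, 10269, 12604 and 10278 in WT 3, 4, 5 and 7. Its groups overlapped through TG 2, TG 5 and WT 5, and the log2 fold change was 0.21 ± 0.14 (SE, limma adjusted p = 0.918). Sdhb, the iron-sulfur subunit, was at 6833, 7796, 8314 and 8051 in TG 2, 5, 6 and 8, against 6647, 6029, 8420 and 6586 in WT 3, 4, 5 and 7. Every TG library lay above 3 of the WT libraries, while WT 5 was the highest of all 8. For Sdhb the log2 fold change was 0.17 ± 0.13 (SE, limma adjusted p = 0.918).

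Sdha, the flavoprotein that oxidises succinate, departed from the library order of most of the genes. It was at 21257, 17831, 18918 and 20286 normalized reads in TG 2, 5, 6 and 8, against 14738, 18986, 17800 and 19531 in WT 3, 4, 5 and 7. TG 2 was the highest library and WT 3 the lowest, the reverse of Ndufb8. Its log2 fold change was 0.15 ± 0.13 (SE, limma adjusted p = 0.918) and 0.06 without WT 3. Sdhd, the other anchor, had a log2 fold change of 0.01.

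Complex III had 3 positive and 4 negative log2 fold changes among its 7 genes, a median of -0.02, and 0 of 7 called. That median was 0.09 without TG 2 and 0.03 without WT 3. Uqcrq, a small accessory subunit, was at 10941, 17057, 18116 and 15038 normalized reads in TG 2, 5, 6 and 8, against 21752, 15947, 18023 and 14445 in WT 3, 4, 5 and 7. As for Ndufb8, TG 2 was the lowest and WT 3 the highest of the 8. Its log2 fold change was -0.21 ± 0.17 (SE, limma adjusted p = 0.918), -0.05 without TG 2 and -0.10 without WT 3.

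Uqcrfs1, the Rieske iron-sulfur protein, was at 8685, 10060, 12478 and 10642 in TG 2, 5, 6 and 8, against 9438, 8464, 11936 and 8207 in WT 3, 4, 5 and 7. TG 6 and WT 5 were the highest of their groups and the ranges overlapped, with a log2 fold change of 0.14. Uqcrc1, a core protein of the matrix side, was at 15125, 17665, 18854 and 17004 in TG 2, 5, 6 and 8, against 15181, 14755, 17569 and 16305 in WT 3, 4, 5 and 7. Its values spread little, with a log2 fold change of 0.10. Uqcrh, the hinge protein at the cytochrome c side and the most abundant of the complex, was at 28882, 37074, 46007 and 40893 in TG 2, 5, 6 and 8, against 45372, 32832, 43018 and 35274 in WT 3, 4, 5 and 7. Both groups covered nearly the same range, and the log2 fold change was -0.04. The other genes were Uqcrb at 0.07, Uqcrc2 at -0.02 and Cyc1, which encodes cytochrome c1, at -0.05.

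Complex IV had 6 positive and 3 negative log2 fold changes among 9 genes, a median of 0.07, and 0 of 9 called. Cox4i1, its largest nuclear subunit, was at 34597, 46494, 48361 and 48524 normalized reads in TG 2, 5, 6 and 8, against 45557, 40149, 44816 and 39095 in WT 3, 4, 5 and 7. TG 2 was the lowest of the 8 while the other TG libraries were the highest, and the log2 fold change was 0.06, or 0.18 without TG 2. Its locus overlaps Emc8, whose feature held 34.1% of the level of Cox4i1.

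Cox6b1, which joins the monomers of the enzyme on the intermembrane side, was at 18828, 22901, 27851 and 23275 in TG 2, 5, 6 and 8, against 22048, 18061, 25911 and 18130 in WT 3, 4, 5 and 7. TG 6 and WT 5 were again the highest of their groups, and the log2 fold change was 0.14. Cox6c, a small membrane subunit, was at 23292, 29133, 37631 and 30030 in TG 2, 5, 6 and 8, against 38584, 28223, 33003 and 30640 in WT 3, 4, 5 and 7. TG 2 was the lowest and WT 3 the highest of the 8. The log2 fold change was -0.13, or -0.02 without TG 2, -0.05 without WT 3 and -0.25 without TG 6. The others ran from -0.12 for Cox7b to 0.09 for Cox5a and Cox7a2.

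Cox7c, another small membrane subunit, was the lowest of the 47 by reads, at 1067, 1331, 1381 and 1477 in TG 2, 5, 6 and 8, against 1297, 937, 1448 and 1153 in WT 3, 4, 5 and 7. Its log2 fold change was 0.13. The annotated pseudogene Gm12338 on chr11:75599649-75600231 shares a stretch of its transcript at 100% identity and held 14891 ± 2319 normalized reads in TG and 14509 ± 1973 in WT (SD, n = 4 each). Reads of the 2 features therefore could not be told apart with certainty. Their sum was 16205 ± 2463 in TG and 15718 ± 2190 in WT (SD, n = 4 each), a log2 fold change of 0.04. Ndufc1 also shares a stretch of at least 100 bases at 95% identity or more with 25 other annotated genes, and Uqcrb, Cox7b and Cox6c with 2 or 3 pseudogenes each, so their levels are uncertain too. In all, 18 of the 47 genes share such a stretch with another annotated gene. Ndufa2 overlaps a feature of the protocadherin cluster that held 336% of its level.

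**Figure D2:**
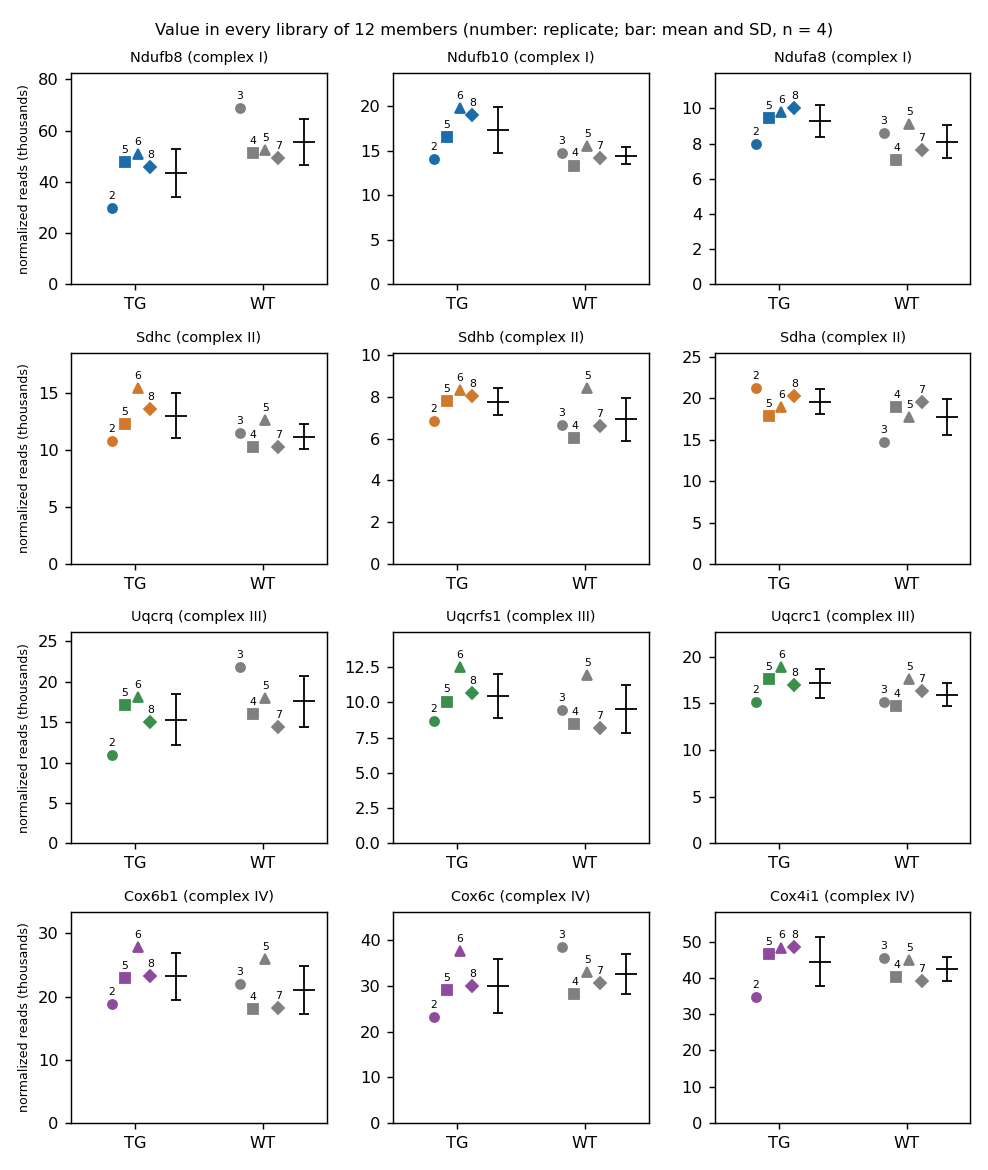
Normalized reads of 12 of the genes in every library, with TG left of WT, numbers for the replicate and bars for the mean and SD (n = 4 per group). TG 2 is the lowest library for Ndufb8, Uqcrq, Cox6c and Cox4i1 and the highest for Sdha.

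Divided by transcript length, so that genes can be compared with each other, the levels spanned 54.6-fold. In TG the highest was Uqcrh, at 69861 ± 13195 normalized reads per kilobase, followed by Ndufa4 at 65904 ± 13249, Ndufb8 at 63975 ± 13945, Cox4i1 at 59723 ± 8942 and Cox6c at 59685 ± 11704 (SD, n = 4). In WT the highest was Ndufb8, at 81493 ± 13098, followed by Uqcrh at 71524 ± 11000, Ndufa4 at 69338 ± 7966, Cox6c at 64836 ± 8815 and Cox4i1 at 56918 ± 4370 (SD, n = 4). In both groups neighbours among these 5 genes differed by less than the larger of their SDs. The next gene, Cox6a1, was lower, at 42350 ± 4490 in TG and 40595 ± 5670 in WT. The lowest was Ndufs1, at 1308 ± 111 per kilobase in TG and 1355 ± 266 in WT. The median level per kilobase was 15171 for complex I, 6430 for complex II, 10017 for complex III and 26310 for complex IV over all 8 libraries. Of the summed reads of the 47 genes, complex I took 51.5 ± 0.83% in TG and 52.0 ± 0.67% in WT, and complex IV took 25.1 ± 0.53% in TG and 25.0 ± 0.61% in WT (SD, n = 4 each). Complex III took 16.4 ± 0.30% in TG and 16.7 ± 0.18% in WT, and complex II took 6.96 ± 0.54% in TG and 6.35 ± 0.57% in WT, all within overlapping ranges.

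**Figure D3:**
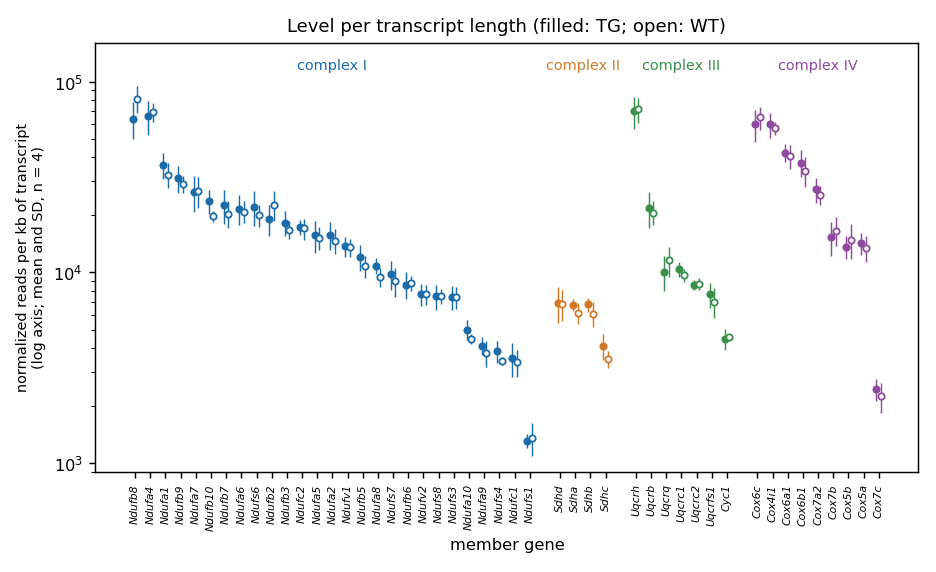
Level of each of the 47 genes in normalized reads per kilobase of transcript on a log axis, by complex, with TG and WT means over 4 libraries each and bars for the SD. Uqcrh is the highest in TG and Ndufb8 in WT, and Ndufs1 and Cox7c are the lowest in both. The level of Cox7c is uncertain, because its reads could not be told apart with certainty from those of Gm12338.

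The 47 genes tended to be high or low in the same libraries. TG 2 was the lowest TG library for 40 of them and TG 6 the highest for 37, against 43.2% and 41.0% of features of mean 1000 or more. WT 4 was the lowest WT library for 32 and WT 5 the highest for 26, against 24.9% and 40.6% of those features. As the median deviation from a gene's own mean, on the log2 scale, TG 2 was at -0.20, TG 5 at -0.03, TG 6 at 0.28 and TG 8 at 0.10, while WT 3 was at 0.08, WT 4 at -0.21, WT 5 at 0.13 and WT 7 at -0.13. The same deviations over features of mean 1000 or more were -0.06 in TG 2, 0.09 in TG 6, -0.06 in WT 4 and 0.07 in WT 5. These features were not matched to the 47 genes for transcript length. In TG 2 the median deviation was -0.22 for the 28 genes under 1000 bases and -0.15 for the 19 of 1000 or more. For the 4 genes of 2000 bases or more it was 0.09. In TG 6 these medians were 0.29, 0.26 and 0.15, and in WT 4 they were -0.23, -0.16 and -0.14. All 4 complexes had the same sign of median deviation in TG 2, TG 6, TG 8, WT 4, WT 5 and WT 7. TG 6, the highest library for 29 of the 47 genes, also had the highest sum of rod markers, but the other libraries did not keep one order in both. The rod sums were 4.71e+06, 4.13e+06, 6.40e+06 and 4.53e+06 in TG 2, 5, 6 and 8. In WT 3, 4, 5 and 7 they were 4.94e+06, 4.63e+06, 5.27e+06 and 5.24e+06. The part of the rod markers in the result was not tested.

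**Figure D4:**
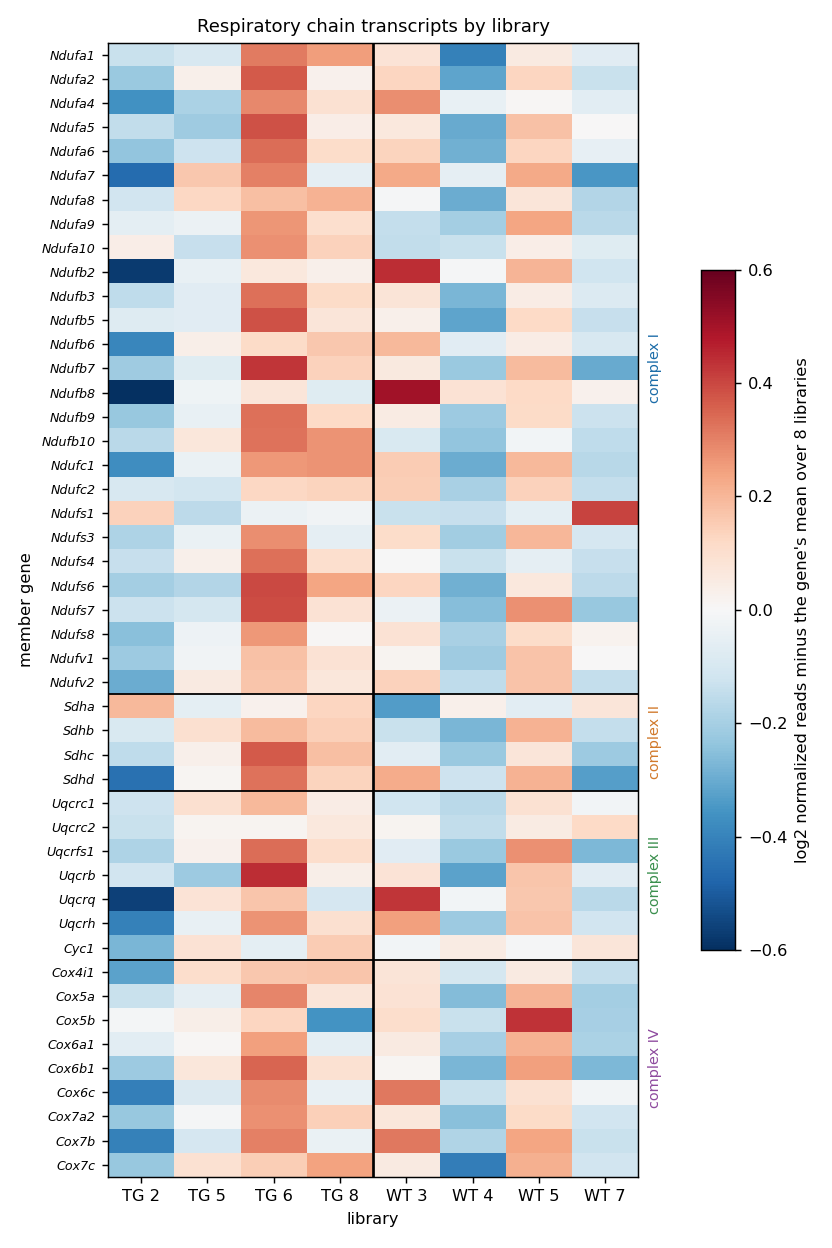
Deviation of each gene from its own mean over the 8 libraries, on the log2 scale, by library with TG libraries first and colours that end at 0.6 in either direction, which Ndufb8 in TG 2 exceeds at -0.71. Most of the genes are below 0 in TG 2 and WT 4 and above 0 in TG 6 and WT 5, with median deviations of -0.20, -0.21, 0.28 and 0.13 in these libraries.

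Of all reads, the 47 genes took 0.944, 1.10, 1.09 and 1.10% in TG 2, 5, 6 and 8, against 0.986, 0.990, 1.03 and 0.898% in WT 3, 4, 5 and 7. TG 2 lay within the WT range and the other TG libraries above it. The mitochondrial genome took 20.4 to 22.3% of reads in TG and 21.9 to 27.5% in WT. Of the reads outside it, the 47 genes took 1.35 ± 0.0925% in TG and 1.31 ± 0.0674% in WT (SD, n = 4 each), with overlapping ranges.

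Sexes were not balanced between the groups, so the comparison was repeated within each sex. Among males, with 2 TG and 3 WT libraries, 9 of the 47 genes were higher and 38 lower in TG by their means, with a median log2 fold change of -0.11, against -0.02 over features of mean 1000 or more. Among females, with 2 TG libraries and only WT 7 on the other side, 43 were higher and 4 lower, with a median of 0.31, against 0.12 over those features. Tested directly as a difference between the sexes, 0 of 47 genes passed an adjusted p of 0.05 by limma, against 0.00505% of all features, and the smallest adjusted p was 0.371. At an unadjusted p under 0.05 there were 4, namely Sdhd, Ndufb7, Ndufs6 and Ndufa7, against 11.8% of all features. By eye, the median was 0.16 in left eyes, with 2 TG and 1 WT libraries, and 0.04 in right eyes, with 2 TG and 3 WT libraries.

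Other genes of mitochondrial energy metabolism, listed by role, gave 0 calls, against 0.0101% of all features by limma. An unadjusted limma p under 0.05 occurred for 1 of 41 assembly factors (Cox10) and 1 of 6 tissue-specific isoforms (Cox7a1). It also occurred for 2 of 11 genes of ubiquinone synthesis and cytochrome c (Coq8a and Coq7) and 1 of 15 citric acid cycle genes (Dld). The count was 0 of 14 further subunits and 0 of 16 ATP synthase genes. It was also 0 of 14 genes that control or copy the mitochondrial genome and 0 of 14 of the membranes and import. Of all features 4.64% had such a p. Of 14 further subunits tested, 11 had positive and 3 negative log2 fold changes, with a median of 0.10. The smallest p-values belonged to Ndufa12 and Ndufv3, both complex I subunits, with log2 fold changes of 0.17 and 0.18. Of 41 assembly factors, 24 were positive and 17 negative, with a median of 0.02. Cox10, needed to make the haem a of complex IV, averaged 1776 ± 122 normalized reads in TG and 1440 ± 100.5 in WT (SD, n = 4 each), a log2 fold change of 0.30 ± 0.14 (SE, limma adjusted p = 0.918). Ecsit, a complex I assembly factor, was at 0.30 ± 0.17. The 16 ATP synthase genes had 10 positive and 6 negative values and a median of 0.06, with Atp5l at -0.18 and Atp5o at 0.16.

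Of 11 genes of ubiquinone synthesis and cytochrome c, the mobile carriers between the complexes, 4 were positive and 7 negative, with a median of -0.05. Coq8a, needed for ubiquinone synthesis, averaged 2458 ± 217 normalized reads in TG and 1924 ± 72.9 in WT (SD, n = 4 each), a log2 fold change of 0.35 ± 0.13 (SE, limma adjusted p = 0.918). Coq7, a hydroxylase of the same pathway, was at 0.39 ± 0.16, Coq4 of the same pathway at 0.47 ± 0.29, and Cycs, which encodes cytochrome c, at -0.10 ± 0.19. Of 6 tissue-specific isoforms tested, 4 were positive and 2 negative, with a median of 0.26. By p-value the first were Cox7a1 at 0.44 ± 0.20 and Cox6a2 at 0.94 ± 0.59, both known from muscle, and then Ndufa4l2 at 0.44 ± 0.64. Cox8b, also known from muscle, was at -0.12 ± 0.58, with its highest value, 1027 normalized reads, in WT 3. The 8 muscle markers, which include Cox7a1, Cox6a2 and Cox8b, had 3 positive and 3 negative log2 fold changes among the 6 of mean 10 or more. Of the other isoforms, Cox8c was listed at 0 in every library, and Cox7b2, known from testis, was below the minimum mean and not tested. Cox7b2 was at 0, 3.52, 0 and 0 normalized reads in TG 2, 5, 6 and 8, against 14.3, 18.4, 25.4 and 5.85 in WT 3, 4, 5 and 7. These groups did not overlap, as was so for 2.53% of all features tested. With a mean of 8.43 its values lie near the floor, and it was picked after they were seen.

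Among 14 genes that control or copy the mitochondrial genome and its transcription, 5 were positive and 9 negative, with a median of -0.04. Ppargc1a, a coactivator of mitochondrial biogenesis, averaged 431 ± 108 normalized reads in TG and 714 ± 342 in WT (SD, n = 4 each), a log2 fold change of -0.62 ± 0.32 (SE, limma adjusted p = 0.918). WT 4 and WT 7, at 925 and 1077, stood above WT 3 and WT 5, at 495 and 359, and the log2 fold change was -0.38 without WT 7 and -0.45 without WT 4. Peo1, the mitochondrial DNA helicase, was at 0.39 ± 0.21. Gabpa, which encodes the DNA-binding subunit of GABP, was at -0.32 ± 0.20, and Nrf1, whose motif was searched above, at -0.02 ± 0.18. Of 14 genes of the mitochondrial membranes and import, 8 were positive and 6 negative, with a median of 0.05, Tomm20 at -0.37 ± 0.19 and Vdac2 at 0.17 ± 0.12. Of 15 genes of the citric acid cycle, 9 were positive and 6 negative, with a median of 0.0040, Dld at -0.29 ± 0.12 and Mdh2 at 0.21 ± 0.12. The 13 subunits encoded in the mitochondrial genome carry no symbols in the table and were not analysed here gene by gene.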

How the data were processed

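Poly(A)-selected RNA of 8 retinas was sequenced as stranded libraries, per the labels' protocols. The deposited signal is a read count per feature that the authors divided by a DESeq2 size factor for each library, per the file headers. STAR 2.4.0, DESeq2, SAMtools, Picard and FastQC, with the build mm10 (GRCm38), appear in the submitters' processing notes. The sources used here do not give the counting tool, its strand setting or its annotation, so reads of overlapping or near-identical genes may be shared. In every column 100.0% of deposited values lay within 0.01 of a whole number of reads, so reads were recovered for the count tests.

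Features with a mean of at least 10 were tested with limma 3.58.1 (R 4.3.3) on log2(value + 1) with a trended prior variance. Benjamini-Hochberg adjustment covered all 19798 features, and 0.05 was the threshold. Every fold change is a difference on that log2 scale, which understates changes of low genes, and its error is an SE. Recovered reads were tested with edgeR 4.0.16 (2 calls in the whole table) and DESeq2 1.42.0 (16 calls). Transcript lengths came from the GENCODE annotation of GRCm38 and near-identical copies from blastn 2.17.0. The procedure was checked on simulated counts, in which most 1.5-fold changes were missed and most 2-fold changes were called. Some unchanged features were called there too. Many features were changed together in these counts, and each was drawn on its own, without swings shared by the genes of a library. They therefore do not give the share of true changes that the test would call in these data.

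The members and the lists of other genes were chosen with earlier results of these data known. Genes named with every library are, in each complex, those with the smallest unadjusted p (3 per complex, 2 in complex II), the most abundant one, and any with a library far from its group. Of each other list, up to 3 genes with the smallest p are named. Cycs, Nrf1, Cox7b2, Cox8b and Cox8c were added after their values were seen. Alternatives were other scalings, pseudocounts and filters, sex, eye, pigment epithelium or rod score as a term, males only, other variance models, the count tests, rows summed by symbol and leaving out libraries. Counting Ndufa4 in complex IV and adding Gm12338 to Cox7c were chosen after the data were seen.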

Additional observations from a re-analysis of the deposited data

Results flagged for a closer look

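Within a group of 4 libraries, a library was picked out where its gap to the nearest other library exceeded the 95% critical value of Dixon's test. Of 94 groups of values of single genes, 3 were picked out this way, and chance picks out about 1 in 20. Ndufa9 was at 6667.8 normalized reads in WT 5, against 4924 to 5140 in the other WT libraries. Ndufs1 was at 4660.85 normalized reads in WT 7, against 3192 to 3369 in the other WT libraries. Cox4i1 was at 34597.2 normalized reads in TG 2, against 46494 to 48524 in the other TG libraries. The share of reads taken by all 47 genes was 0.944425% in TG 2, against 1.09 to 1.10% in the other TG libraries.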

How the results depend on the processing

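Across the 27 alternative fits, 0 of the 47 genes passed, and their smallest adjusted p was 0.640 (limma, without WT 5). The sign held in all fits for 13 genes and changed in at least 1 for 34. The table-wide count of calls, 2 in limma, was 1 with a pseudocount of 0.5, with no filter, with a minimum mean of 50, with sex, the pigment epithelium score or the rod score as a term, and with no variance trend. It was 4 in males only, 16 by DESeq2 and 1 to 3 when each library was left out.

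In males only, the median log2 fold change was -0.11 over the 47 genes, -0.13 in complex I, 0.04 in complex II, -0.10 in complex III, -0.10 in complex IV, -0.12 for the further subunits, -0.12 for ATP synthase and 0.085 for the citric acid cycle. Signs turned there for 24 of the 47 genes and, among all genes named by the rule, for Uqcrfs1 (-0.074), Cox6b1 (-0.068), Cox7c (-0.018), Cox4i1 (-0.12), Ndufa9 (-0.010), Ndufs1 (0.10), Ndufa12 (-0.028), Ndufv3 (-0.023) and Atp5o (-0.13). They also turned with upper-quartile scaling for Uqcrh (0.00631) and Ndufs1 (0.012), and for Ndufs1 when scaled outside the mitochondrial genome (0.000938) or with the rod score (0.092). Leaving out each library gave -0.14 to 0.086 for Uqcrh, -0.089 to 0.094 for Ndufs1 and a median of 0.023 to 0.53 for the isoforms. The cause was not tested.

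No paired analysis was possible because TG and WT share only replicate number 5. With 4 libraries per group and a median SE of 0.14, a gene without a call is not shown to be unchanged, and its interval gives the range the data allow.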
